A study of Mus musculus with 9 samples.

Results

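The pancreas described here was the wild-type organ of mouse embryos at embryonic stage e15.5 (genotype Blinc1+/+), dissected whole and read by RNA sequencing in 3 libraries. They were chosen by their titles from the 9 libraries of the series, which otherwise come from heterozygotes and knockouts of Blinc1, a long noncoding RNA gene that neighbours the islet factor gene Nkx2-2; those 6 libraries were not used and no genotypes were compared. All embryos had a mixed background of C57BL/6 and 129Sv. Nothing in the labels says whether the 3 libraries came from separate embryos, litters or pools, so every spread below is a spread between these libraries and may be partly technical.

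The pancreas joins 2 glands in one organ. Acinar cells of the exocrine part make the digestive enzymes that ducts carry to the gut, and endocrine cells of the future islets release insulin, glucagon and other hormones into the blood. At this stage of mouse development acinar cells are filling with enzyme, endocrine cells are arising from epithelium that switches on Neurog3, and both lie in mesenchyme threaded with vessels and nerves. Ptf1a with Rbpjl drives acinar genes through a bipartite site made of an E-box (CANNTG) and a TTTCCC box, whereas Pdx1, Nkx2-2 and Nkx6-1 are among the factors of islet cells.

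Levels are in FPKM, fragment counts scaled to transcript length in kilobases and to the number of mapped fragments, so they are scaled per length and can be compared between genes. A share is a gene's FPKM as a percentage of the FPKM of all 23235 gene symbols in that library, and is given as a mean ± SD over the 3 libraries (n = 3 throughout). Since whole organs were sequenced, fewer cells of a type and less RNA per cell cannot be told apart in any share below. No test was run, because there is 1 group and nothing to compare it with.

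The promoters of the genes at the top of both glands are shown first, since these genes hold the largest shares described below. Each run is the 300 bases from 250 before to 50 after the transcription start in RefSeq (build GRCm38.p6), read 5′ to 3′ on the gene's strand. Capitals mark matches, on either strand, to the E-box word CANNTG, to the word TTTCCC and to the word TATAAA, known from the TATA box. The first 4 belong to exocrine genes, chymotrypsinogen B, a lipase-related protein, pancreatic amylase and carboxypeptidase A, and the last 2 to hormone genes, insulin 1 and glucagon. Clps and Ins2 are not shown.
Ctrb1 (chr8:111690961-111691260, minus strand): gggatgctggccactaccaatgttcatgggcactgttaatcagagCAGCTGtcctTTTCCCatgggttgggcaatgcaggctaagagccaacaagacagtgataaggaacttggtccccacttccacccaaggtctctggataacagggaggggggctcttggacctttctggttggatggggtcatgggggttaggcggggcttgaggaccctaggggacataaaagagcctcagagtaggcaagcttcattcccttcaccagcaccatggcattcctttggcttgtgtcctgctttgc
Pnliprp1 (chr19:58728637-58728936, plus strand): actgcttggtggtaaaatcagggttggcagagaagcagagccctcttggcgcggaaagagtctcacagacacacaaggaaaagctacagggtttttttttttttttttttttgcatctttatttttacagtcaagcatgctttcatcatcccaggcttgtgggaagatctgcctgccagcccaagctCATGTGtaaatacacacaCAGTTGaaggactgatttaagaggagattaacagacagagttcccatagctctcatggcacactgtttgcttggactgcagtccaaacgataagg
Amy2a5 (chr3:113258650-113258949, minus strand): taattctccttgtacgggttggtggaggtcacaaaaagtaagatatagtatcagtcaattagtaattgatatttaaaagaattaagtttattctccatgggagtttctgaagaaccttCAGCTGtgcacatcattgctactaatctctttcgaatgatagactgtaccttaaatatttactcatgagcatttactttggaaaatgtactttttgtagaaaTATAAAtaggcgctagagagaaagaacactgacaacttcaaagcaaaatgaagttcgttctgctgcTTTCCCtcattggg
Cpa1 (chr6:30638968-30639267, plus strand): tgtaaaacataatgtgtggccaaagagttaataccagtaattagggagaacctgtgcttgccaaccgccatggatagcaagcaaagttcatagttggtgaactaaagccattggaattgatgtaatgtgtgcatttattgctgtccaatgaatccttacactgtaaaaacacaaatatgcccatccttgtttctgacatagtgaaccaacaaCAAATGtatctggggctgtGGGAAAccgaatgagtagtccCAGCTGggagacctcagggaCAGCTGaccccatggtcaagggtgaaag
Ins1 (chr19:52264047-52264346, plus strand): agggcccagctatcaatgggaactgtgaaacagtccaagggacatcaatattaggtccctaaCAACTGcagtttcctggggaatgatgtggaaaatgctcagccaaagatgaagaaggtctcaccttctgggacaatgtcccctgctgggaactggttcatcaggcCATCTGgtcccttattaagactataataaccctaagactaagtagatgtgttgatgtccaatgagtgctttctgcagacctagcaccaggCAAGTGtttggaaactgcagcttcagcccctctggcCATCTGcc
Gcg (chr2:62483604-62483903, minus strand): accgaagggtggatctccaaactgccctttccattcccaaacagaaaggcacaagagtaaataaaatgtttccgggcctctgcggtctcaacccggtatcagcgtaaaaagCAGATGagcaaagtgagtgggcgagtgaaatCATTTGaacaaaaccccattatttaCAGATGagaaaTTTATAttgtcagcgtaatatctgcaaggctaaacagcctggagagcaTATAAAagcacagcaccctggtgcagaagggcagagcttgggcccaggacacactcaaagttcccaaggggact

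In Ctrb1 the E-box begins at position -205 from the start and the TTTCCC box at -195. In Amy2a5 the E-box begins at -132 and the TATAAA match at -30, while its TTTCCC match lies after the start, at 36. The window of Cpa1 holds 3 E-boxes and 1 TTTCCC match, that of Pnliprp1 2 E-boxes and neither other word, that of Ins1 4 E-boxes and no TTTCCC, and that of Gcg 3 E-boxes and 2 TATAAA matches. Over the exocrine genes at or above 1 FPKM, 38 of 51 had a RefSeq promoter, 40 windows in all. Of these, 40% held both CANNTG and TTTCCC, 42.5% TATAAA and 87.5% CANNTG, against 18.0%, 13.6% and 72.3% of all 32851 windows. Endocrine genes (48 windows for 38 of 55 genes) stood at 20.8% for both words and 8.33% for TATAAA. The 74 windows of ribosomal protein genes stood at 21.6% and 9.46%. Counted by itself, TTTCCC was found in 40% of exocrine, 22.9% of endocrine, 39.2% of ribosomal protein and 25.2% of all windows. CANNTG was found in 72.9% of endocrine and 50% of ribosomal protein windows. Both words were counted anywhere in a window and at any spacing, so a window with both need not hold a bipartite site. Some exocrine genes are close copies of each other, so their windows are not independent. A match is a run of letters, not a bound site, and the shares carry no test.

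The transcriptome of the embryonic pancreas was led by a handful of exocrine genes. Of 23235 symbols, 13166 had a mean of at least 1 FPKM, 7280 at least 10 and 889 at least 100. The single highest gene held 8.48% ± 0.155 of the summed FPKM, the 10 highest 21.4% ± 0.564 and the 100 highest 37.8% ± 0.793. A total of 319 genes made up 50% of the sum of mean FPKM, and 341, 297 and 313 did so in replicates 1, 2 and 3. At the other end 4928 symbols were listed at 0 in all 3 libraries.

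**Figure D1:**
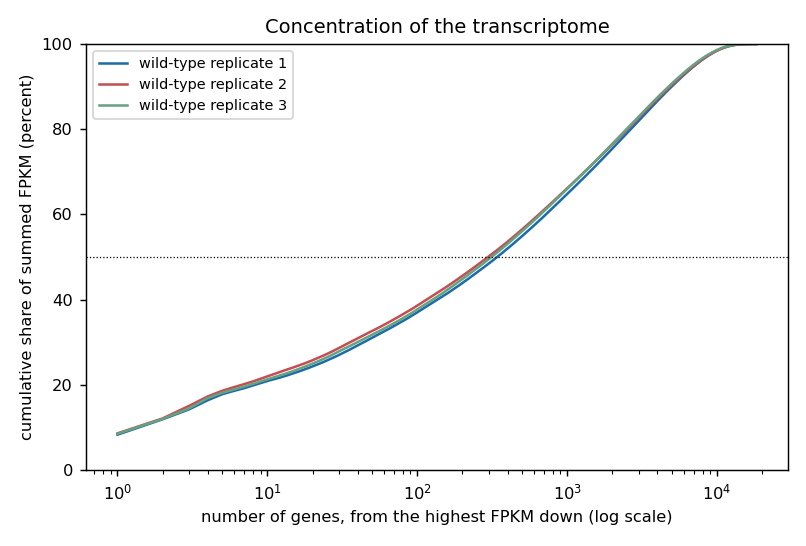
Cumulative share of summed FPKM (percent, y axis) against the number of genes counted from the highest down (log scale, x axis), 1 line per wild-type library; the dotted line marks 50%. The 3 lines lie close together, start between 8.31% and 8.62% at the first gene and cross 50% between 297 and 341 genes.

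Sorted into 11 classes by function, the listed genes held 46.3% ± 0.868 of the sum. Exocrine genes held 22.1% ± 0.521, with 21.7%, 22.7% and 22% in replicates 1, 2 and 3. Housekeeping genes held 16.1% ± 0.268 (16%, 15.9% and 16.4%). All remaining classes were smaller by far. The machinery of the endoplasmic reticulum held 2.07% ± 0.0221 and growth genes, meaning imprinted and cell cycle genes, held 1.74% ± 0.0405. Endocrine genes held 1.11% ± 0.162 (0.924%, 1.19% and 1.22%), blood genes 1.07% ± 0.242 (0.903%, 1.35% and 0.958%) and stromal genes 0.955% ± 0.143 (0.964%, 1.09% and 0.807%). Endocrine, blood and stromal shares overlapped over the 3 libraries, so the classes as listed had no set order. The blood class leaves out Beta-s, a beta globin locus on no list, and this affects its place. With Beta-s, a choice made after its values were seen, the blood share was 1.53%. Adult globins with Beta-s held 1.18%, 1.86% and 1.24%, above the endocrine and stromal shares of the same library. Noncoding genes held 0.769% ± 0.149, duct and epithelial genes 0.33% ± 0.0281, progenitor genes 0.0747% ± 0.00397 and genes of neighbouring organs 0.0187% ± 0.00922. The 53.7% left over belonged to 21590 symbols on no list.

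**Figure D2:**
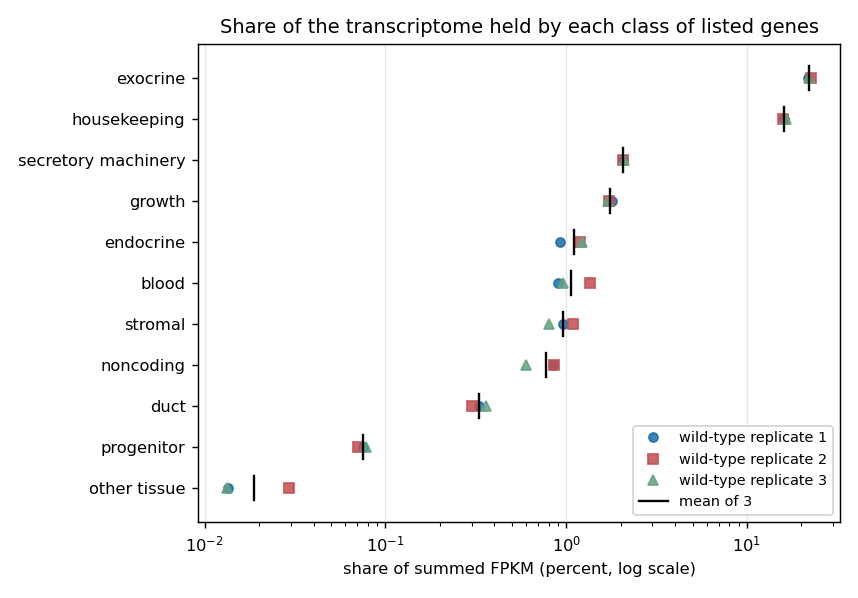
Share of summed FPKM held by each class of listed genes (percent, log scale, x axis) in each wild-type library (points) with the mean of 3 (bars). Exocrine and housekeeping genes lie far to the right at 22.1% and 16.1%, endocrine, blood and stromal genes overlap near 1%, and progenitor genes lie at 0.0747%. The blood class is drawn without Beta-s.

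The share depends on what is counted. At the same FPKM a long transcript gives more fragments than a short one. Counted as fragments, which were worked back from the width of the deposited confidence bounds, exocrine genes held 11.5%, housekeeping genes 9.97%, stromal genes 1.98%, endocrine genes 0.514%, blood genes 0.296% and progenitor genes 0.120%. On that count stromal genes stood above endocrine and blood genes. Fragments worked back in this way come out too low for multi-mapped genes. Amy2a5 had an average of 142738 at 15766 FPKM, against 27919 at 1024 FPKM for Amy2b. The part of this in the shifts between the 2 counts was not tested.

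The 3 libraries were alike in depth and differed in sex. They held the equivalent of 21482203 to 24204452 fragments, and their log2(FPKM + 1) values had Pearson correlations of 0.986 to 0.989 across the 13166 genes, which are not independent. Xist, the transcript of the inactive X chromosome in females, stood at 0.0608, 0.0469 and 38.2 FPKM in replicates 1, 2 and 3, and the Y-linked Ddx3y at 16.2, 14.8 and 0, so replicate 3 had the pattern of a female and the others that of males. Rn45s, the ribosomal RNA precursor, stood at 1351, 2645 and 1406 FPKM and was highest in replicate 2. Any part of sex or of ribosomal RNA in the differences between libraries was not tested. The defining genes of the labelled tissue, such as Pdx1, Ptf1a, Ctrb1 and Ins2, were found in every library.

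Exocrine genes came first. Ctrb1, which encodes chymotrypsinogen B (mm9, chromosome 8, 114210410 to 114214910, minus strand, protein coding), stood at 50327, 53148 and 53410.1 FPKM, a mean of 52295 ± 1709. It alone held 38.3% ± 0.315 of the exocrine sum, and it was more than any other gene in every library. Pnliprp1, a relative of pancreatic lipase (mm9, chromosome 19, 58803377 to 58818659, plus strand), stood at 21858, 21635 and 22003 FPKM, within 1.02-fold of each other. Clps, the colipase that lets lipase work on fat droplets, stood at 13018, 13728 and 15475 and was highest in replicate 3. The carboxypeptidase Cpa1, which trims peptides from the carboxyl end, stood at 8604, 8226 and 7898.

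Amylase was the member whose rank rests on bookkeeping. Amy2a5, pancreatic alpha-amylase, had 14029.5, 18081 and 15187 FPKM when its 4 loci on chromosome 3 were summed, which put it at rank 3. Of these loci 3 bore the status LOWDATA in all libraries. The single locus with a full estimate (mm9, chromosome 3, 113052096 to 113061617) stood at 3752, 4775 and 3945 FPKM, a mean of 4157 ± 544. The copies are nearly identical in sequence, so reads cannot be placed among them with certainty. Replicate 2 was highest on both readings, but the sum includes the single locus. The confidence bounds of the sum overlapped between libraries. Amy2b had 1295, 934 and 841 FPKM, highest in replicate 1, and Amy2a2 had 129.9, 155 and 137. The lipase gene Pnlip, chosen after its value was seen, stood at only 0.628, 0.985 and 1.1 FPKM, and Pla2g1b, a secreted phospholipase likewise chosen, at 5.54, 2.35 and 3.09.

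Proteases and lipases filled the next ranks. The 22 acinar proteases of the list that were found in the table held 12.4% ± 0.209, and the amylases and lipases 8.88% ± 0.292. All 22 proteases reached 1 FPKM and 15 of them 100 FPKM. Elastase Cela2a stood at 1495, 2016 and 2156 FPKM and Cela3b at 1387, 1802 and 1803, both lowest in replicate 1. Cel, the bile-salt-stimulated lipase, stood at 1610.0, 1974 and 1871. Trypsinogen Prss1 stood at 1046, 1336 and 997 and Prss2 at 534, 864 and 671, highest in replicate 2, but the trypsinogen genes are close copies and their split is uncertain. Spread is given as the coefficient of variation, the SD as a percentage of the mean, and the widest member of a list is named among those of at least 10 FPKM. For proteases this was 2210010C04Rik, a member of the trypsin family, at 86.2, 119.7 and 65.3 FPKM (coefficient of variation 30.4%).

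Other secretory products of acinar cells held 0.804% ± 0.0539. Spink3, the trypsin inhibitor that guards against early activation (mm9, chromosome 18, 43887723 to 43896891, minus strand), led them at 1732, 1831 and 1991 FPKM. Nupr1, a small chromatin protein of stressed acinar cells, stood at 809, 837 and 860.1, Pdia2, a disulfide isomerase of the pancreas, at 392, 442 and 386, and Reg1, a secreted lectin, at 323, 275 and 352. Rnase1, pancreatic ribonuclease, was the widest at 185, 521 and 478 FPKM, with replicate 1 far below the others. Of the 15 genes in this list at or above 1 FPKM, 10 were lowest in replicate 1, against 24.5% of all 13166 genes.

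The acinar transcription factors lay between 34.3 and 147 FPKM, far below the leading enzymes. Rbpjl, the acinar partner of Ptf1a, stood at 167, 117 and 158 FPKM, Bhlha15 (Mist1), which shapes the secretory cell, at 134, 123 and 132, and Ptf1a itself at 74.4, 67.6 and 85.3. Gata4 stood at 57.6, 45.4 and 59 and the nuclear receptor Nr5a2 at 38.1, 28.7 and 36. The ranges of Rbpjl and Bhlha15 overlapped, and those of all later neighbours in this order did not. All 5 were lowest in replicate 2, a placing shared by 40.1% of all genes, while the share of acinar proteases was highest there, at 12.6% against 12.2% and 12.3%.

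**Figure D3:**
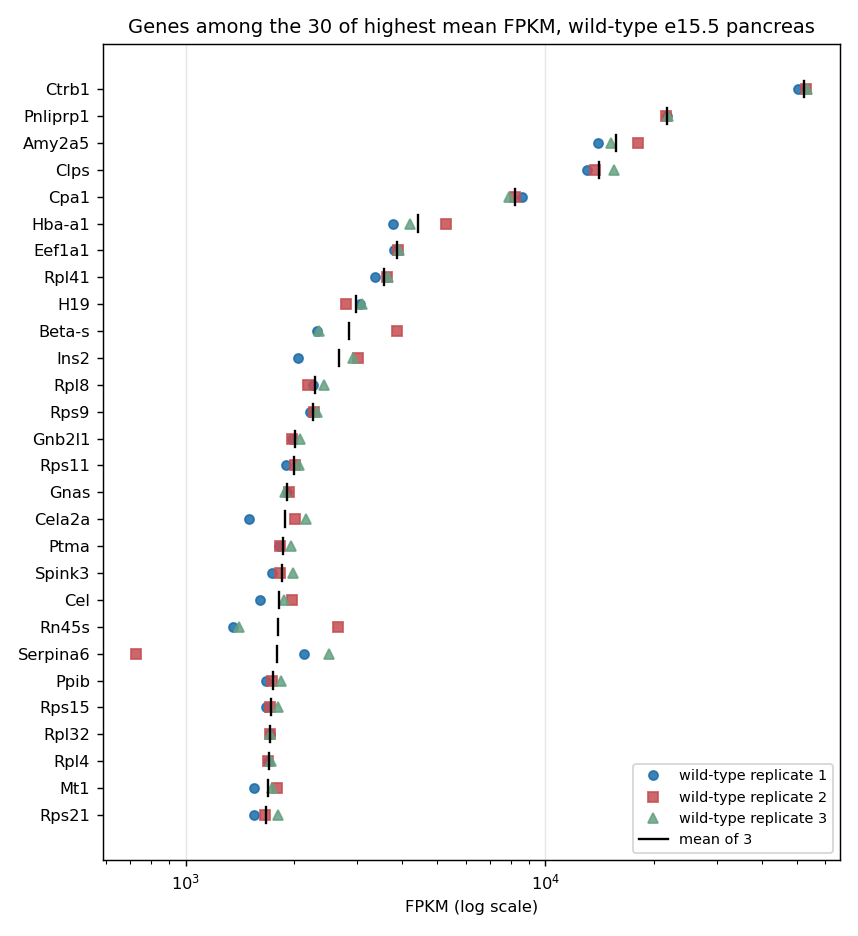
FPKM (log scale, x axis) of genes among the 30 of highest mean FPKM in each wild-type library (points) with the mean of 3 (bars). Ctrb1 stands apart at a mean of 52295 FPKM, ribosomal protein genes crowd the lower rows with points nearly on top of each other, and Serpina6 has the widest gap, at 728 FPKM in replicate 2 against 2131 and 2509.

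The exocrine share was 20.2 ± 2.85 times the endocrine share, with ratios of 23.5, 19.1 and 18.1. Most of the endocrine share was hormone. The 12 hormone genes held 0.894% ± 0.14 (0.733%, 0.964% and 0.986%), and every one reached 1 FPKM. Ins2 (mm9, chromosome 7, 149864561 to 149865613, minus strand), which encodes insulin 2, ranked 12th of all symbols at 2049.8, 3007 and 2918 FPKM. Ins1 stood at 422, 722 and 683, and the ratio of Ins2 to Ins1 was 4.43 ± 0.369. Both insulins were lowest in replicate 1, by a wide gap, and together made up 58.9% ± 3.58 of the hormone sum. Gcg, glucagon, stood at 801, 899 and 1039 FPKM and made up 16.7% ± 1.47.

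Among the other hormones, Iapp, the amylin co-released with insulin, stood at 383, 515 and 495 FPKM and Pyy, peptide YY, at 408, 373 and 516. Sst, somatostatin, stood at 152, 155 and 191, and Ghrl, the ghrelin of the fetal islet, at 116, 141 and 220.0, highest in replicate 3. Npy (31.2, 65.5 and 49.1), Ppy, pancreatic polypeptide (40.3, 29.4 and 39.6), and Gast, gastrin (17.4, 14.7 and 25.8), lay between 10 and 100 FPKM, and Gip (8.51, 12.1 and 6.61) and Cck (7.48, 7.72 and 9.81) near 10. Of the 11 neighbouring pairs in this order, 5 had overlapping ranges: Ins1 with Iapp, Iapp with Pyy, Sst with Ghrl, Npy with Ppy, and Gip with Cck. The widest spread was that of Npy, a coefficient of variation of 35.3%.

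Genes of the hormone granule and of beta cell function held 0.19% ± 0.0199, and all 25 reached 1 FPKM. Ttr, the transthyretin carrier protein, stood at 352, 458 and 489.9 FPKM, and Cpe, the carboxypeptidase that trims prohormones, at 221, 212 and 201. Chga and Chgb, the chromogranins that pack the granule, stood at 89.2, 122 and 115 and 43, 66.5 and 80.2. Of these 4, all but Cpe were lowest in replicate 1. Of these 25 genes 17 were highest in replicate 3, against 35.3% of all genes.

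Islet transcription factors were rare transcripts. All 18 reached 1 FPKM, only 7 reached 10, and together they held 0.0253% ± 0.00228. Nkx6-1, a beta cell factor, stood at 21, 18.9 and 25 FPKM. Nkx2-2, the neighbour of Blinc1, stood at 15.2, 21.7 and 25.5, lowest in replicate 1 and highest in replicate 3. Its spread was the widest among the 7 factors that reached 10 FPKM. The tables also list Nkx2-2as, its antisense gene, and since the use of strand in counting is unknown here, their reads cannot be told apart. Hhex (18.6, 22.3 and 21.2), needed for delta cells, and Isl1 (17, 18.1 and 17.9) followed, then Insm1 (10.1, 11.2 and 13.7), Pax6 (10.3, 11.2 and 12.5) and Neurod1 (9.66, 9.6 and 10.4). The ranges of the first 3 overlapped, as did those of Insm1 through Neurod1. Pax4, a factor of early beta and delta cells, stood at 5.16, 5.68 and 7.15, and Mafa, of mature beta cells, at 2.19, 3.22 and 3.86. The remaining factors, Rfx6 (3.4, 3.61 and 4.31), Myt1 (3.5, 3.71 and 3.83), Irx2 (2.75, 2.98 and 3.77), Irx1 (3.12, 2.64 and 2.72), Mnx1 (2.06, 1.98 and 2.29), St18 (1.62, 1.86 and 1.98) and Pou3f4 (1.72, 1.68 and 1.87), all lay under 5 FPKM. Replicate 3 was highest for 15 of the 18 factors as deposited, against 35.3% of all genes, and for 14 to 15 after rescaling each library to its summed FPKM, to the median gene or to ribosomal protein genes.

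The progenitor class held 0.0747% ± 0.00397, and the coefficient of variation of this summed share was 5.31%, against 14.6% for the endocrine class. Single progenitor genes spread more than their sum, with a median of 9.18%, against 15.3% for endocrine genes. Neurog3, the switch of endocrine fate, led at 52.4, 55.8 and 73.4 FPKM, a mean of 60.5 ± 11.2, and was highest in replicate 3. Hes6, a bHLH gene that accompanies it, stood at 52.2, 44.8 and 54.1, and their ranges overlapped. Amotl2 stood at 19.3, 19.2 and 18.7, Rcor2 at 17.7, 14.7 and 14.4 and Mfng, which modifies Notch, at 13.8, 14.1 and 15.9. The Notch ligand gene Dll1 stood at 8.61, 7.61 and 8.02. Fev, expressed just after Neurog3, was lower at 5.05, 5.77 and 9.24, again highest in replicate 3.

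Of the 16 pancreatic progenitor factors 14 reached 1 FPKM, led by the Notch target Hes1 at 48.3, 40.1 and 48.5 FPKM. Pdx1, the master factor of the pancreas, stood at 34.5, 29.8 and 35.6, Foxa2 at 29.3, 29.1 and 32, Gata6 at 26.5, 28.7 and 26.4 and Sox9, of progenitors and ducts, at 24.2, 24 and 26. Hnf4a (17.5, 16.9 and 19.9), Jag1 (13.4, 13.4 and 13.3) and Notch1 (12.3, 13.4 and 12.1) lay between 10 and 20. Onecut1 (7.54, 4.87 and 6.53), Notch2 (5.64, 6.23 and 5.63), Prox1 (6.66, 5.14 and 5.45) and Glis3 (2.49, 1.64 and 2.29) lay under 10, and Onecut2 (0.152, 0.0801 and 0.124) and Foxa1 (0.0409, 0.153 and 0.0561) under 1. The 3 libraries of Pdx1 overlapped those of Foxa2, and all 3 of Hes1 lay above all 3 of Pdx1.

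**Figure D4:**
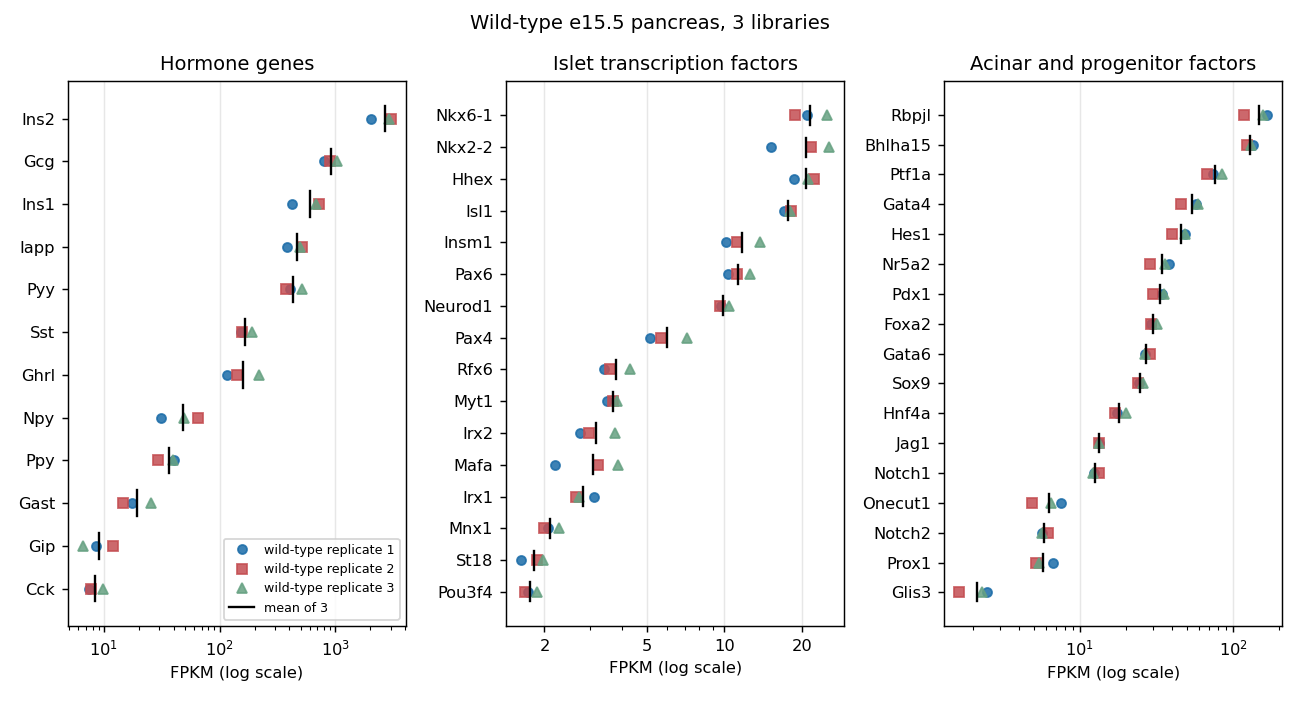
FPKM (log scales, x axes) of hormone genes (left), islet transcription factors (middle) and acinar and progenitor factors (right) of at least 1 FPKM that are reported here, in each wild-type library (points) with the mean of 3 (bars). Hormones span 8.34 to 2658 FPKM and islet factors 1.76 to 21.6; the triangles of replicate 3 lie to the right for most islet factors, and the squares of replicate 2 to the left for all 5 acinar factors.

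Duct and epithelial genes held 0.33% ± 0.0281. Spp1, osteopontin of the duct lineage, stood at 414, 415 and 468 FPKM, and the simple-epithelium keratins Krt18 and Krt8 at 398, 374 and 438 and 249, 246 and 299. Epcam, an epithelial adhesion molecule, stood at 217, 197 and 267 and Cldn4, a tight junction claudin, at 50, 43.3 and 61.1, the widest of the list. The adult duct keratin Krt19, outside the naming rule and chosen after its values were seen, was lower, at 43.8, 45.7 and 47. Of 14 genes at or above 1 FPKM, 12 were highest in replicate 3 (9 when scaled to ribosomal protein genes), against 35.3% of all genes, and 10 were lowest in replicate 2, against 40.1%. Among all genes of at least 100 FPKM with bounds that did not overlap, 479 of 709 were highest in replicate 3.

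Most stromal genes were highest in the same library. This class takes in mesenchyme and mesothelium, extracellular matrix, smooth muscle and pericytes, endothelium, and neurons and glia. Of 108 genes at or above 1 FPKM, 84 were highest in replicate 2, where 27.5% of all genes were highest, and 85 were lowest in replicate 3, where 35.4% of all genes were lowest. Other scalings gave 76 to 87 highest in replicate 2 and 83 to 95 lowest in replicate 3. The extracellular matrix held 0.737% ± 0.117 (0.745%, 0.85% and 0.616%), and 33 of its 35 genes were highest in replicate 2 and 33 lowest in replicate 3. Sparc, a collagen-binding protein, stood at 785, 878 and 690.4 FPKM, and the fibrillar collagen Col3a1 at 508, 573 and 437. Vim, the mesenchymal filament vimentin, stood at 491, 515 and 440.3, and Dcn, the proteoglycan decorin, at 339, 403 and 268. Fn1, fibronectin, was the widest at 19.7, 34.8 and 18.2. The fibrillar collagens Col1a1, Col1a2 and Col3a1 held 0.188%, 0.221% and 0.155% of the sum in replicates 1, 2 and 3.

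Vessels and nerves, already counted within the stromal class, followed the same order in part. Of 24 endothelial genes 22 were highest in replicate 2, against 27.5% of all genes, and the list held 0.105% ± 0.00926. Cd34, a surface protein of endothelial and blood progenitor cells, stood at 77.5, 89.7 and 74.4 FPKM, Ramp2, a receptor partner, at 67.8, 81.6 and 64.8, and Plvap, a protein of endothelial pores, at 61.2, 65.4 and 62.2. Cldn5, the endothelial claudin, was the widest at 31.3, 38.3 and 25.8. Smooth muscle and pericyte genes held 0.0341% ± 0.00754, with the actin gene Acta2 at 94, 121 and 68.7 and Tagln at 54.9, 68.5 and 38.9. Genes of neurons and glia held 0.0308% ± 0.00647. Stmn2, of growing axons, stood at 48.9, 65.2 and 37.9, the neuronal tubulin Tubb3 at 17, 32.8 and 17.9, and Prph, peripherin of peripheral nerves, at 8.99, 18.8 and 7.64, with replicate 2 far above the others for Tubb3 and Prph.

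Mesenchymal factors and mesothelial genes held 0.0478% ± 0.00459. Of 25 genes 13 were highest in replicate 1, as 37.2% of all genes were, and 11 in replicate 2, counts that became 11 and 13 after rescaling to the median gene. In replicate 3, 19 were lowest under every scaling, against 35.4% of all genes as deposited. Osr1 stood at 37.4, 37.9 and 32 FPKM and Meis1 at 35.6, 35.6 and 35.2, the latter nearly equal in all libraries. The mesothelial Upk3b stood at 30, 34.5 and 23.9, highest in replicate 2 and the widest of the list, Meis2 at 31.7, 27.4 and 29.1 and Tcf21, of visceral mesenchyme, at 25.8, 23.7 and 19.3.

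Blood genes were dominated by adult globins. The 21 erythroid genes found in the table, 12 of them at or above 1 FPKM, held 0.978% ± 0.238 (0.807%, 1.25% and 0.878%). Hba-a1, alpha globin, ranked 7th at 3775, 5279 and 4190.2 FPKM, and its near-identical copy Hba-a2 was listed at 47.6, 661 and 0.000661 FPKM, a split that reads cannot settle. Together the alpha globins stood at 3823, 5940 and 4190.2 FPKM. Hbb-b1, beta globin, stood at 956, 1633 and 1228. The beta globin locus listed as Beta-s, on no list and chosen after its values were seen, stood at 2321, 3877 and 2343, and adding it raised the blood share to 1.53%. Alas2, the first enzyme of heme synthesis in red cells, stood at 29.1, 47 and 31.5. Of the 12 erythroid genes 8 were highest in replicate 2, against 27.5% of all genes. The embryonic globins Hba-x, Hbb-y and Hbb-bh1 summed to only 27.1, 27.7 and 43.1 FPKM and were highest in replicate 3.

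Immune and platelet genes held 0.0917% ± 0.00996. The macrophage complement genes C1qa (144, 156 and 169), C1qb (35.4, 43.2 and 34.3) and the lysozyme Lyz2 (60.8, 71.2 and 45) led with Tyrobp (38.1, 30.7 and 28.6), a signalling adaptor. S100a9, a neutrophil calcium-binding protein, was the widest at 19.9, 16.4 and 4.15 FPKM, low in replicate 3. Of 26 genes at or above 1 FPKM, 23 were lowest in replicate 3 as deposited and 23 to 24 under the other scalings, against 35.4% of all genes as deposited.

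Genes of neighbouring organs were low, with replicate 2 above the others. Liver genes held 0.0127% ± 0.00777 (0.00802%, 0.0217% and 0.00839%), and 8 of 11 reached 1 FPKM. Alb, albumin, stood at 3.41, 36.4 and 1.95 FPKM, Afp, alpha-fetoprotein, at 23, 40.6 and 24.8, and Serpina1b at 8.68, 16.4 and 10.5, each highest in replicate 2. Of 8 liver genes 7 were highest in replicate 2, against 27.5% of all genes. Stomach and gut genes held 0.00603% ± 0.00147, most of it Tff2, a mucosal trefoil peptide, at 30.2, 41.1 and 29.3. The intestinal factor Cdx2 stood at 0.25, 0.0936 and 0.043 and the gastric Gkn1 at 0, 0.708 and 0. Replicate 2 was thus highest in liver, erythroid, extracellular matrix and endothelial genes and in Rn45s, and the part of any of them in the exocrine and endocrine values was not tested.

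Housekeeping genes filled the ranks between. Cytoplasmic ribosomal proteins held 6.6% ± 0.132, of which 81 of 86 genes reached 10 FPKM. Rpl41, the smallest ribosomal protein, stood at 3364, 3623 and 3657 FPKM, Rpl8 at 2254, 2179 and 2418, and Rps9 at 2214, 2266 and 2309. Rpl34 was the widest of the list, at 60.3, 18.5 and 35. Many ribosomal protein genes have near-identical pseudogenes elsewhere in the genome, so single values are uncertain. Eef1a1, the elongation factor that carries transfer RNA, ranked 8th at 3796, 3898 and 3926, and translation factors held 1.91% ± 0.0241. Nuclear genes of the respiratory chain held 3.18% ± 0.102, led by Atp5b, a subunit of ATP synthase, at 1146, 1100.2 and 1215. No gene symbol matched the list of mitochondrially encoded genes, so the mitochondrial genome has no share here. The summed FPKM behind every share holds none of that list.

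The cytoskeleton held 1.29% ± 0.0308, with the actin-sequestering Tmsb4x at 1373, 1554 and 1386 FPKM and Actb at 739.7, 768 and 752. Proteasome and ubiquitin genes held 0.988% ± 0.0159, led by Ubb at 1246, 1252 and 1099, splicing and hnRNP genes 0.818% ± 0.0293, led by Hnrnpa2b1 at 469.9, 414 and 470.0, and histones 0.374% ± 0.00983, led by the replacement histone H3f3b at 525, 477 and 535. Glycolysis held 0.331% ± 0.0138, led by Tpi1, triose phosphate isomerase, at 409.5, 405 and 497, and the chaperones 0.604% ± 0.0366, led by Hsp90ab1 at 1194, 1082 and 1226. All 12 chaperones at or above 1 FPKM were lowest in replicate 2 under every scaling tried, where 40.1% of all genes were lowest as deposited. Which library was highest for housekeeping genes as a whole did depend on the scaling. Replicate 3 was highest for 261 of 419 genes as deposited, against 35.3% of all genes. The count was 209 by share of summed FPKM, 259 after rescaling to the median gene and 150 after rescaling to ribosomal proteins. Many of these genes are abundant, and 479 of the 709 genes of at least 100 FPKM with non-overlapping bounds were also highest in replicate 3.

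All 48 listed genes of folding and translocation in the endoplasmic reticulum reached 1 FPKM, 47 reached 10, and they held 2.07% ± 0.0221. P4hb, protein disulfide isomerase, stood at 1202, 1175 and 1247 FPKM, the calcium-binding chaperone Calr at 1054, 1071 and 1122, the luminal chaperone Hspa5 at 808, 768 and 817 and the translocon-associated Ssr2 at 685, 759 and 763. Their median coefficient of variation, 4.34%, was the lowest of the lists.

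Growth genes had several of the highest single levels. Imprinted genes held 1.41% ± 0.0408. H19, a noncoding RNA from the imprinted locus on chromosome 7 (mm9, 149761437 to 149764051, minus strand), ranked 10th at 3051, 2798 and 3082 FPKM, Gnas, a G protein subunit, ranked 18th at 1914, 1937 and 1884, and Igf2, the fetal growth factor beside H19, stood at 1162, 1171 and 1051. Mest stood at 666, 651 and 634, and Nnat, neuronatin, was the widest at 169, 262 and 220.1, lowest in replicate 1. Cell cycle genes held 0.33% ± 0.0157, with all 32 above 1 FPKM, Ube2c at 227, 225 and 244, the survivin gene Birc5 at 151, 137 and 152, the replication clamp Pcna at 132, 117 and 132 and cyclin Ccna2 at 107, 96.4 and 113. Of these 32, 28 were lowest in replicate 2, where 40.1% of all genes were lowest, and 25 to 28 under other scalings.

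Small noncoding RNA genes require a different reading. Their share of 0.668% ± 0.15 included Rn45s, which is large but was drawn into the list by its symbol, and was 0.376% without it. Of the 21 remaining genes at or above 1 FPKM, 20 had under 50 fragments on average and 17 under 10. Mir703, at rank 50, had 905, 1349 and 779 FPKM from an average of 3.67 fragments, and Mir686, at rank 85, had 1527 FPKM in replicate 1 and 437 in replicate 3 from an average of 1.53 fragments. A further 5 small nucleolar RNA genes of 10 FPKM or more were listed at 0 in all but 1 library. The loci of Mir703 and Mir686 span the whole hairpin, 109 bases long, so their values do not measure the mature microRNA. The mature microRNAs that these symbols name, 21 and 22 bases long, are shown from RefSeq (build GRCm38.p6). Capitals mark the seed, bases 2 to 8.
miR-703: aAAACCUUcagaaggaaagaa
miR-686: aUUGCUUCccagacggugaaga

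The list of longer noncoding RNAs held 0.101% ± 0.00473, with the host gene Snhg1 at 244, 232 and 183 FPKM, Snhg6 at 82.9, 55.2 and 125, Snhg3 at 62.3, 64.5 and 63.6 and Tug1 at 47.5, 46.4 and 42.

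How far libraries differed was asked of every gene. The deposited confidence bounds cover the error of counting and of assigning reads, so a gene whose lower bound in the highest library exceeds the upper bound in the lowest library differed by more than that error. Of 13166 genes at or above 1 FPKM, 6150 did so, which is 46.7%. The share grew with level, from 38.4% at 1 to 10 FPKM and 49.8% at 10 to 100 to 79.8% at 100 or more, so counts for lists of abundant genes must be read against the last. Of the exocrine genes 48 of 51 did so, of the endocrine genes 44 of 55, of the stromal genes 85 of 108, of the blood genes 31 of 38, of the housekeeping genes 276 of 419 and of the progenitor genes 14 of 25. Within the lists it was all 12 for erythroid genes, 33 of 35 for extracellular matrix, 11 of 18 for islet factors, 5 of 11 for endocrine progenitor genes and 57 of 83 for ribosomal proteins.

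The coefficient of variation had a median of 7.36% over the 13166 genes. The lists of widest median spread were small noncoding RNA genes at 98.7%, liver genes at 53.6%, erythroid genes at 35.6%, smooth muscle genes at 27.4%, neurons and glia at 22.5%, histones at 20.7%, gut and stomach genes at 19.7% and hormones at 18.6%. The narrowest were endoplasmic reticulum at 4.34%, cytoskeleton at 4.37% and ribosomal proteins at 4.89%. The narrowest single gene was Rpl32 at 1711, 1709.7 and 1709 FPKM, a coefficient of variation of 0.0682%, followed by Ppp2r2a (21.9, 21.8 and 21.9), Athl1 (18.8, 18.8 and 18.8), Rpf2 (22.2, 22.2 and 22.2) and 2310003C23Rik (26.2, 26.3 and 26.3). The widest were small RNA genes of a few fragments (Snora7a, Snora65, Snora69, Snora64, Snora15, Mir686 and Snora70), Xist, Hba-a2 and Alb. Snora7a (mm9, chromosome 6, 115757993 to 115758121) lies inside the locus of Rpl32.

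**Figure D5:**
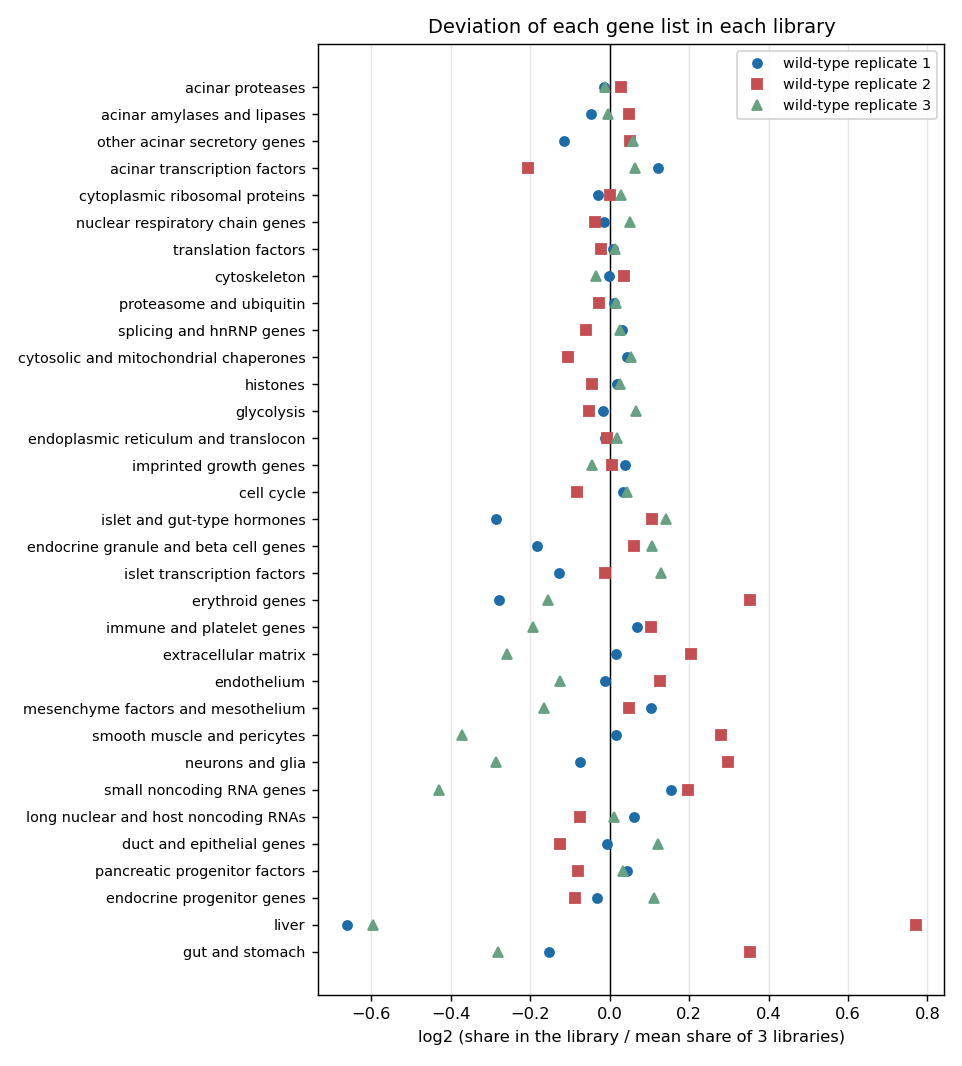
Deviation of each gene list in each wild-type library (x axis, log2 of the library's share over the mean share of 3 libraries), lists grouped by class. Ribosomal and other housekeeping lists lie near the zero line, hormone and granule lists lie left for replicate 1, and extracellular matrix, erythroid and liver lists lie right for replicate 2.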

How the data were processed

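RNA from 3 wild-type embryonic pancreas samples was analysed. Per the labels, TopHat 2.0.4 aligned the reads to mm9, allowing 4 mismatches and 10 hits. The submitters' processing notes also name DESeq, Cufflinks and CASAVA 1.8.2. The deposited FPKM values, with lower and upper bounds and a status word per locus, follow the column layout of Cufflinks gene tables, per the file headers. The annotation is not given in the sources used here, nor is the use of strand.

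FPKM were summed over the loci of each symbol (248 symbols had more than 1) with rows marked FAIL (7 to 10 per library) or LOWDATA (285) kept, then averaged over libraries. Fragments were worked back from the bounds, taken as 2 standard errors of a Poisson count; they come out too low for multi-mapped or failed rows. Scripts ran in Python 3.11.15 with numpy 2.4.6 and pandas 2.3.3 and were tested on simulated data. Mouse gene positions were checked against GENCODE for mm9: 99.8% of 17608 symbols found by name overlapped their gene.

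The 34 gene lists (11 classes with members in the tables) and the members named were chosen with earlier results of these data known. Named are the 20 symbols of highest mean FPKM, up to 4 highest members per list, hormones and the acinar, islet and progenitor factors, the widest member of at least 10 FPKM in each list, the 10 widest and 5 narrowest genes of at least 10 FPKM, and markers of other organs and of sex; some genes that meet this rule are not reported here. Alternatives left out each library, used the highest locus, dropped FAIL and LOWDATA rows, took the median, dropped low or small RNA genes, or counted fragments. Depth was 21482203 to 24204452 implied fragments per library.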

Additional observations from a re-analysis of the deposited data

How the results depend on the processing

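No paired analysis was possible because only the wild-type group was described and no groups were compared. Leaving out any library, or taking the median, cannot move a mean of 3 libraries by 1 SD, so those alternatives were no check on the shares. Each of 8 recomputed classes kept its share within 1 SD without small RNA genes and genes under 50 fragments, without Rn45s, or with genes of at least 1 FPKM only. Without erythroid genes the same held for the 7 classes other than blood, which has no such value. All these drops took little from the sum, and the exocrine share went from 22.1% to at most 22.4%. They were therefore a weak check on the shares. With only the highest locus of each symbol the exocrine share was 20.7% and the housekeeping share 16.4%, and with FAIL and LOWDATA rows missing they were 20.8% and 16.5%. Implied fragments are not scaled per length and come out too low for multi-mapped genes. Counted so, exocrine genes held 11.5%, housekeeping genes 9.97%, stromal genes 1.98%, endocrine genes 0.514%, blood genes 0.296% and progenitor genes 0.120%. On that count 993 genes made up 50% of the sum in place of 319. Adding Beta-s, an alternative chosen after seeing the data, took blood to 1.53%.

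For lists, 45 recomputed shares moved by more than 1 SD. Among named genes 3 values moved by more than 1 SD: Amy2a5, at 4157 FPKM by its highest locus and also without LOWDATA rows, and Hba-a1, at 3577 FPKM by its highest locus. The 6150 genes with bounds that did not overlap became 3892 at a minimum of 10 FPKM, 7030 with no minimum, 5941 after rescaling to the median gene, and 3057 to 3783 with 1 library left out and so fewer libraries compared. Values of small RNA genes and of genes under 1 FPKM are limited by depth.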

Other observations

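Genes on no list held 53.7% of the summed FPKM, and 21 of the 100 highest symbols were among them. The values below were chosen after they were seen and carry no test. Gnb2l1, the ribosome-bound scaffold Rack1, stood at 1976, 1975 and 2073 FPKM in replicates 1, 2 and 3, and Ptma, prothymosin alpha, at 1813, 1826 and 1966. Ppib, a cyclophilin of the endoplasmic reticulum, stood at 1668, 1738 and 1836. The metallothioneins, small proteins that bind zinc, were Mt1 at 1545, 1791 and 1738 FPKM and Mt2 at 1149.7, 1209 and 1313. The ferritin genes Ftl1 and Fth1 stood at 938, 932 and 911 and at 706, 811 and 795. Clu, clusterin, stood at 765, 647 and 751, and Mdk, the growth factor midkine, at 534, 538 and 573.

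Serpina6, corticosteroid-binding globulin (mm9, chromosome 12, 104884842 to 104895281, minus strand), ranked 24th at 2131, 728 and 2509 FPKM. Its highest library exceeded its lowest 3.45-fold, at 20293 to 76080.1 implied fragments. Replicate 2, its lowest library, was the highest for albumin and most liver genes. Hddc3 stood at 10.7, 7.98 and 29.4 FPKM, with replicate 3 above the others, and its bounds did not overlap.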
